A study of Mus musculus with 12 samples.

Results

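Fully grown mouse oocytes wait at the germinal vesicle (GV) stage, in prophase of the first meiotic division, with an intact nucleus. When they resume meiosis the nuclear envelope breaks down, the chromosomes condense and a spindle forms without centrioles, and the cell reaches the first meiotic metaphase (MI). Transcription is silent through this interval, so protein synthesis draws on messages stored during growth, some of which gain a longer poly(A) tail and load ribosomes while others are deadenylated and lost. The comparison described here is that of wild-type (WT) oocytes at MI against WT oocytes at GV, with 2 libraries at each stage, 4 of the 12 libraries of the series. It covers the 11667 genes, of 23235 in the table, whose mean value over the 12 libraries was at least 1 FPKM (a unit that counts fragments per kilobase of transcript relative to library size).

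The RNA sequenced was the RNA bound to polysomes, the messages carrying several ribosomes, so a value reflects both the amount of a message and its share on ribosomes. Fewer ribosome-bound copies per cell and fewer cells in a pool cannot be told apart in such libraries. All mice were C57BL/6 at postnatal day 21. PMSG, a gonadotropin that stimulates follicle growth, is recorded 48 h before collection for the GV groups. No such interval is recorded for the MI and MII groups. WT GV oocytes were taken directly and WT MI oocytes after 8 h of culture in vitro. The WT MII group (16 h of culture) and the 3 groups of Cnot6l-/- mice (KO, lacking a catalytic deadenylase of the CCR4-NOT complex, at GV, MI and MII), each with 2 libraries, served to estimate the spread of each gene, and KO GV and KO MI are set beside the WT change at the end. cDNA was pre-amplified, and 500 pg of it was cut and tagged by Tn5 transposase. The labels do not say whether the replicates of a group were separate pools of oocytes, so the p-values measure the spread between libraries, which may be technical.

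Total FPKM fell from 1252142 and 1280736 in the WT GV libraries to 1040466 and 1063273 in WT MI, and the genes above 0 from 12554 and 12616 to 10578 and 10487. The 100 most abundant genes held 30.6% and 30.8% of the summed FPKM at GV and 45.9% and 46.1% at MI. No external standard is given, so each change is stated as deposited and after median scaling, which divides each library by its median ratio to the other libraries. Replicates correlated across genes with Pearson's r = 0.926 at GV and 0.886 at MI on the log2 scale. A value of 0 in 1 replicate beside more than 20 FPKM in its partner occurred for 39 genes at MI and 20 at GV, so a listed 0 does not show absence. All 16 oocyte markers lay above 5 FPKM in all 4 libraries, and their summed FPKM was 45400 and 46500 at GV and 69400 and 70500 at MI. The 28 markers of cumulus and granulosa cells, the follicle cells around the oocyte, summed to 319 and 347 FPKM at GV and 132 and 144 at MI, or 0.0127% to 0.0271% of the total, with 14 to 16 of them at 0. Without the inhibin gene Inha the other 27 summed to 118 and 108 FPKM at GV and 109 and 107 at MI. Those 27 included changes in both directions. Ptx3 was higher (0 in both GV libraries, 32.1 and 40.2 at MI). Hsd17b1 (18.7 and 18.4 then 6.99 and 0.86) and Amhr2 (18.2 and 5.6 then 0 in both MI libraries) were lower. Lhcgr, Foxl2, Vcan, Areg, Ereg, Pgr and Slc38a3 were at 0 in all 4 libraries. The 20 markers of theca, stroma, endothelium and blood summed to 33.1 to 96.9 FPKM. Precursor ribosomal RNA (Rn45s) stood at 5941 and 5043 FPKM at GV and 10160 and 8314 at MI, and its part in any result was not tested.

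From GV to MI most polysome-bound messages were lower, while a set of abundant maternal transcripts was higher. As deposited, 357 genes were called higher at MI (3.06% of those tested) and 2535 lower (21.7%), by limma with a Benjamini-Hochberg adjusted p under 0.05. After median scaling 816 were higher (6.99%) and 892 lower (7.65%). The median change over all genes was -0.87 on the log2(FPKM + 1) scale as deposited and -0.32 after scaling, so scaling moved the whole distribution upward. All 357 genes called higher as deposited were also called higher after scaling, and all 892 called lower after scaling were also called lower as deposited. These 2 sets, called alike on both scales, are the genes said below to have risen or fallen. A further 1636 genes were lower as deposited and not called after scaling. Another 452 were called higher after scaling alone. Direction depended on the scale for 7 genes, lower as deposited and higher after scaling, among them the zona pellucida genes Zp1 and Zp3. Rescaling every library to the same total (TPM) gave 495 higher and 1701 lower, quantile normalization 918 and 748, and removal of each library's abundance trend 819 and 749, so the split between directions depended on the scale. Leaving out WT GV replicate 1 gave 1227 lower and 216 higher calls as deposited, and leaving out WT GV replicate 2 gave 1176 lower calls.

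The risen genes held 20.3% and 20.2% of the summed FPKM in the 2 WT GV libraries and 43.9% and 43.3% in the 2 WT MI libraries. The fallen genes went the other way, from 20.6% and 20.8% to 7.07% and 7.0%. Both sets were chosen on the values of these same libraries, so the direction of each shift follows from that choice. Calls in both directions were most frequent among abundant messages, with level taken from the KO GV libraries, which are outside the contrast. Of the 153 genes at 1000 FPKM or more there, 48 rose and 48 fell (31.4% each), whereas of the 3781 genes between 1 and 10 FPKM 24 rose and 113 fell (0.635% and 2.99%). Of the 1895 genes between 100 and 1000 FPKM 169 rose and 375 fell (8.92% and 19.8%). The shares of all genes given beside the gene lists below are not matched for level. The plot of change against GV level shows both sets running to the highest levels.

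**Figure D1:**
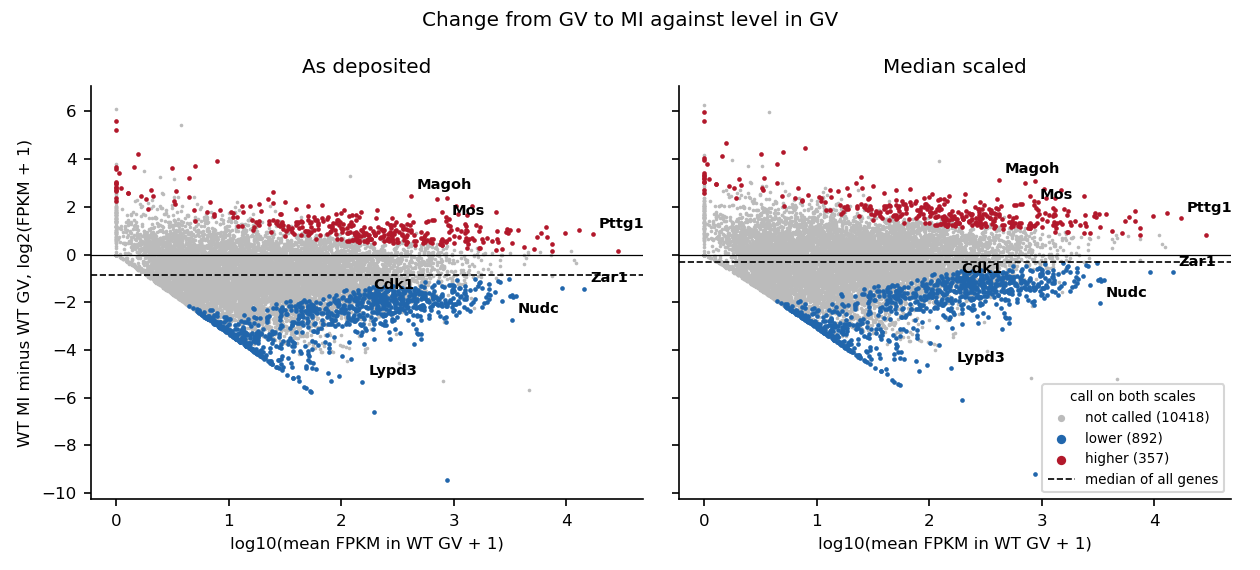
Change from WT GV to WT MI in log2(FPKM + 1) against the WT GV level (log10 of mean FPKM + 1), as deposited (left) and median scaled (right), one point per gene. Red points are the 357 genes called higher and blue points the 892 called lower on both scales; the dashed line, the median of all 11667 genes, lies at -0.87 and -0.32.

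The messages that rose held a cytoplasmic polyadenylation element near their 3′ end in a larger share of cases than those that fell. This element, bound by CPEB1, lies upstream of the AAUAAA polyadenylation signal and directs tail extension during maturation. The last 30 bases up to and including the signal are shown for abundant risen genes that hold both motifs and for abundant fallen genes that hold the signal without the element; they are shown to make the 2 kinds of ending visible. Capitals mark the element (TTTTAT or TTTTAAT) and the signal (AATAAA or ATTAAA), in DNA letters, 5′ to 3′ along the message. Risen genes:
Bcl2l10: catTTTTAATaacttcaaattcttAATAAA
Gdf9: tgctgtggTTTTATgtgacggaagAATAAA
Omt2b: tggggttttaacggTTTTATaataAATAAA
Cks2: tgTTTTATtttacctgttttgttaAATAAA
Bpgm: ttaatttacttgtatccaTTTTATAATAAA
Fallen genes:
Zar1: gtgtacttggatataaagcctgtgAATAAA
Ubb: gctgaacctctgttaaaaaatgttAATAAA
Nudc: tccttgccattcgtcctgttacacATTAAA

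These stretches were read from mouse build NCBIM37 in the 3′ UTRs annotated by GENCODE M1. They lie at chr9:75199395-75199424 (Bcl2l10, plus strand), chr11:53251360-53251389 (Gdf9, plus), chr9:78177360-78177389 (Omt2b, plus), chr13:51745977-51746006 (Cks2, plus) and chr6:34455566-34455595 (Bpgm, plus). Those of the fallen genes lie at chr5:72968368-72968397 (Zar1, minus), chr11:62366663-62366692 (Ubb, plus) and chr4:133088475-133088504 (Nudc, minus). In the first 5 the element stands at different distances from the signal, and in Bpgm it runs directly into it. The 3 fallen genes hold no element anywhere in the last 100 bases of the 3′ UTR.

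Over all genes with a matched 3′ UTR of at least 100 bases, 135 of 329 risen genes (41.03%) held an element in the last 100 bases, on the sense strand. The share was 91 of 704 (12.93%) for fallen genes, 1802 of 9065 (19.88%) for the other genes tested and 20.08% for all 10098. An element together with a polyadenylation signal stood in that window in 37.69% of risen, 8.24% of fallen and 16.59% of other genes. The alternatives to the as-deposited fit include TPM, quantile normalization and removal of each library's abundance trend, which rescale the values. Across these alternatives the share with an element was 36.6% to 45.9% of genes called higher and 12.8% to 14.4% of those called lower. Such calls rest on each setting alone, so the sets are not those of the risen and fallen genes. The letters TTTTAT alone occurred in 31.91% and 10.23% of risen and fallen genes, and TTTTAAT in 11.25% and 3.41%. The AU-rich element TATTTAT occurred in 6.38% of risen, 3.84% of fallen and 4.54% of other genes. The Pumilio element TGTANATA (N, any base) occurred in 8.81%, 2.98% and 5.35%, and the polyadenylation signal in 89.06%, 74.15% and 80.71%. The cytoplasmic polyadenylation element was thus not the only motif with a larger share in risen than in fallen genes. These are matches of letters, described without a test.

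Base composition and length moved with the calls. The last 100 bases had a median A plus T content of 68% in risen, 60% in fallen and 65% in other genes, and the median 3′ UTR measured 576, 468.5 and 863 bases. Within genes of 65% to 74% A plus T the element share was 45.21% for risen, 21.6% for fallen and 26.63% for uncalled genes, and within those of 75% or more it was 68.57%, 37.5% and 44.14%. Within those of 55% to 64% it was 20.93%, 10.12% and 11.4%. Below 55% it was 11.11% (3 of 27 risen genes), 3.47% and 3.75%. In both of these lower classes the share of fallen genes was near that of uncalled genes. By 3′ UTR length the share ranged from 33.73% to 49.38% in risen and from 11.44% to 14.29% in fallen genes. The element share of risen genes thus exceeded that of fallen genes in every length and composition class examined. Over the whole 3′ UTR the shares were 69.21%, 40.34% and 57.68%.

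Read from the sequence side, the 1686 genes with an element and a signal had a median change of -0.41 as deposited and 0.16 after scaling, against -0.89 and -0.34 for 6445 genes with a signal and no element. As deposited 7.35% of the former were higher and 13.5% lower, and 2.62% and 22.4% of the latter. In percentage points the gap in higher calls was widest among abundant messages, where such calls were most frequent. Level here is that of WT GV, which is inside the contrast. Below 10 FPKM 2.0% of genes with an element and 0.699% of those without one were called higher. At a WT GV mean of 1000 FPKM or more, 18 of 28 genes with an element were called higher (64.3%) and 8 lower, whereas of 110 without one 29 were higher (26.4%) and 59 lower.

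**Figure D2:**
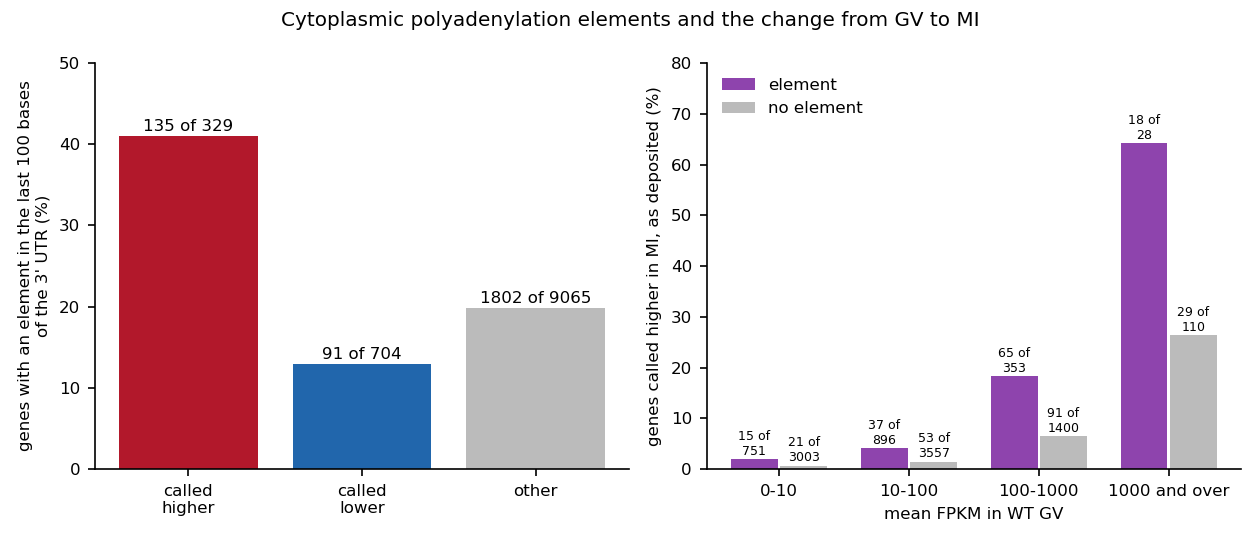
Left, share of genes with a cytoplasmic polyadenylation element in the last 100 bases of the 3′ UTR, for genes called higher, called lower and not called alike on both scales (135 of 329, 91 of 704 and 1802 of 9065). Right, share of genes called higher as deposited, by mean WT GV FPKM and presence of an element, which rises to 18 of 28 genes with an element at the highest level.

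The 8 most abundant risen transcripts at MI were Ldhb, Pttg1, H1foo, Dppa3, Bcl2l10, Gdf9, Padi6 and the ribosomal RNA precursor Rn45s. Pttg1, which encodes securin, the inhibitor of separase, lies on chromosome 11 (43233752 to 43239753). Its level was 16872 and 17503 FPKM at GV and 30652 and 31147 at MI. It rose by 0.85 as deposited (SE 0.04, adjusted p = 2.39e-07) and 1.52 after scaling, but its change was 0.00 under quantile normalization. H1foo, the oocyte linker histone (chromosome 6, 115894956 to 115900254), went from 12697 and 13333 to 26725 and 27085 FPKM (log2 change 1.05, adjusted p = 2.39e-07). Bcl2l10, an oocyte member of the BCL2 family, went from 6573 and 6774 to 15025 and 14827 FPKM (1.16, adjusted p = 1.37e-08). Dppa3, which guards maternal DNA methylation in the zygote, went from 9570 and 10118 to 18125 and 19234 (0.92, adjusted p = 7.62e-07). For each of these 4 genes the replicates of a stage lay close together and both MI libraries lay above both GV libraries. Over all genes tested the MI libraries lay wholly above the GV libraries as deposited in 9.38% of cases and wholly below in 55.2%, so separation alone sets no gene apart.

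Ldhb and Padi6 rose less and depended more on the setting. Ldhb, the lactate dehydrogenase B subunit and the most abundant risen message, stood at 28350 and 29239 FPKM at GV and 31855 and 31549 at MI. Its change was 0.14 as deposited (adjusted p = 0.0096) and 0.82 after scaling, it was not called without WT GV replicate 1 (adjusted p = 0.0869), and it was -0.79 once the abundance trend of each library was removed. Padi6, a structural protein of the egg's cytoplasmic lattices, went from 7538 and 7547 to 10193 and 10403 FPKM (0.45, adjusted p = 0.000102). With the abundance trend removed its change was -0.08. The direction of both changes turned under that setting.

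The most abundant fallen messages were Zar1, a maternal RNA-binding factor, and Ubb, which encodes ubiquitin. Zar1 (chromosome 5, 72968353 to 72972323) fell from 14747 and 14323 to 5227 and 5598 FPKM (log2 change -1.43, SE 0.06, adjusted p = 1.8e-07; -0.75 after scaling). Ubb (chromosome 11, 62364673 to 62366715) fell from 9074 and 9233 to 3580 and 3359 FPKM (-1.40, adjusted p = 2.39e-07). The next was the ribosomal protein gene Rpl35, described with its list. The antioxidant enzymes Prdx2 and Sod1 came after it, Prdx2 at 3276 and 3484 then 913 and 1074 FPKM, Sod1 at 3330 and 3283 then 900 and 1129. Nudc, a dynein-associated protein of nuclear movement and mitosis, fell furthest of these, from 3189 and 3376 to 598 and 410 FPKM (-2.73, adjusted p = 1.9e-06). All of these stages were separated by far more than the gap between replicates.

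Among genes detected at both stages the largest changes were seen in messages of low or moderate abundance. Agbl2, a tubulin-modifying carboxypeptidase, had 0 and 1.1 FPKM at GV, then 21.2 and 31.2 at MI (4.20, adjusted p = 0.000771). Nupr1, a stress-induced chromatin protein, was at 5.76 and 2.29 FPKM, then 50.3 and 73.2 (3.71, adjusted p = 0.000531). Hormad1, a protein of the meiotic chromosome axis, was at 2.85 and 3.93, then 39.8 and 37.9 FPKM (3.19, adjusted p = 0.00304). At higher levels Magoh, a core protein of the exon junction complex, went from 425 and 400 to 2294 and 2277 FPKM (2.47, adjusted p = 9.5e-08). Rfpl4, an oocyte gene, went from 996 and 738 to 4352 and 4639 (2.39, adjusted p = 6.76e-07). Both belong to the 12 largest scaled increases among genes detected at GV and at 10 FPKM or more at MI.

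Among the largest decreases Lypd3, a membrane-anchored adhesion protein, went from 159 and 147 FPKM to 2.06 and 3.81 (-5.33, SE 0.33, adjusted p = 3.82e-06). Slc35b2, the Golgi transporter of the sulfate donor PAPS, went from 35.1 and 45.1 to 0.39 and 0 (-5.11, adjusted p = 5.58e-05). Mgmt, a DNA repair methyltransferase, went from 71.8 and 79.1 to 1.36 and 1.51 (-4.97, adjusted p = 2.69e-05). Fos, an immediate early transcription factor, had 46.5 and 61.4 FPKM before resumption and 3.1 and 0 after. Its partner gene Junb had 48.2 and 58.5 FPKM at GV and was listed at 0 in both MI libraries. Listed zeros were more frequent at MI: 13 genes were at 0 in both MI libraries and at 20 FPKM or more in both GV libraries, and 2 showed the reverse. These 2 were Spp1, the secreted phosphoprotein osteopontin, at 65.9 and 33.5 FPKM at MI, and Ptx3 (32.1 and 40.2), a matrix protein of the expanding cumulus.

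Cdk1 bound to cyclin B drives entry into M phase, and its activity is set by cyclin synthesis and by activating and inhibiting phosphatases and kinases. Of 30 tested genes of this group 4 rose (13.3%) and 3 fell (10%), against 3.06% and 7.65% of all genes, with a median change of -0.79 as deposited and -0.13 after scaling. Ccnb1, cyclin B1 (chromosome 13, 101548605 to 101556525), stood at 936 and 903 FPKM in GV and 2096 and 2122 in MI (1.20, SE 0.09, adjusted p = 1.24e-05). Cks2, a small Cdk-binding subunit, went from 1308 and 1308 to 2570 and 2645 FPKM (0.99, adjusted p = 2.22e-05). Ccnb2, cyclin B2, went from 381 and 504 to 723 and 599 (0.58, adjusted p = 0.0332), a call lost in 6 of 17 alternatives, among them those without WT GV replicate 1 (adjusted p = 0.222) and without WT MI replicate 1. The Ccnb1 call held in all 17.

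The kinase message itself was lower at MI. Cdk1 (chromosome 10, 68799383 to 68815686) fell from 167 and 171 to 54.0 and 49.3 FPKM (-1.69, SE 0.29, adjusted p = 0.00241; -1.02 after scaling). The call was lost under 3 of 17 alternatives, removal of each library's abundance trend and both other median scalings (adjusted p up to 0.0791). Cdc25a, an activating phosphatase, fell from 38.4 and 37.7 to 6.89 and 8.46 FPKM (-2.18, adjusted p = 0.00538). The Cdc25a call was lost under 5 of 17 alternatives (adjusted p up to 0.0843). Cdkn1b, the Cdk inhibitor p27, fell from 34.8 and 35.9 to 3.56 and 3.85 (-2.95, adjusted p = 0.000438). Cdc25b, the phosphatase needed for resumption, was at 51.7 and 37.6 then 28.7 and 17.5 FPKM and was not called (adjusted p = 0.453). Wee2, the oocyte kinase that inhibits Cdk1, stood at 275 and 253 then 213 and 137 FPKM, with a change of -0.62 as deposited (adjusted p = 0.0382) and 0.05 after scaling. Its call held in 4 of 17 alternatives, was lost without WT GV replicate 1, WT GV replicate 2 or WT MI replicate 2 (adjusted p up to 0.208), and its sign turned under scaling.

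The Mos pathway activates the MAP kinases ERK1 and ERK2 in maturing oocytes. Of 18 tested members 3 rose (16.7%) and 0 fell on both scales, against 3.06% and 7.65% of all genes. Their medians were -0.45 and 0.04. Mos (chromosome 4, 3797804 to 3799252) rose from 854 and 845 to 2219 and 2281 FPKM (1.40, SE 0.08, adjusted p = 1.83e-06). Map2k1, the kinase MEK1, went from 252 and 344 to 482 and 729 FPKM (1.01, adjusted p = 0.00513). Mapk3, which encodes ERK1, went from 569 and 657 to 842 and 942 (0.54, adjusted p = 0.0225). Without WT GV replicate 1 both missed the threshold (adjusted p = 0.0534 and 0.145), and Mapk3 also missed it without WT MI replicate 2. Of the 16 tested genes that hold the oocyte at prophase through cyclic AMP, none was called alike on both scales, and 1 was lower as deposited (Akap1, -1.46, adjusted p = 0.0296, lost without any 1 of the 4 libraries).

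The anaphase-promoting complex targets securin and cyclin B for destruction at anaphase. Of 21 tested subunits, activators and targets 5 rose (23.8%) and 0 fell, against 3.06% and 7.65% of all genes. Their medians were -0.28 as deposited and 0.39 after scaling, against -0.87 and -0.32 for all genes. Beside Pttg1, its activator Cdc20 (chromosome 4, 118105506 to 118109957) went from 370 and 338 to 828 and 784 FPKM (1.19, SE 0.15, adjusted p = 0.000412). The others were Anapc10, the inhibitor Fbxo43 (Emi2) and Espl1 (separase), with adjusted p from 0.0105 to 0.0284 as deposited. Without 1 library as few as 2 members were called higher. In the same list Fzr1, the activator Cdh1 that restrains resumption at GV, went from 321 and 392 to 136 and 153 FPKM (-1.29, adjusted p = 0.00886), lost its call without WT GV replicate 2 or WT MI replicate 1 (adjusted p up to 0.0735), and was not called after scaling (adjusted p = 0.199).

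The spindle checkpoint delays anaphase until kinetochores are attached. Of 29 tested checkpoint and kinetochore genes 6 rose (20.7%) and 0 fell, against 3.06% and 7.65% of all genes, with medians of -0.20 and 0.37. Mad2l1, the checkpoint effector MAD2, went from 309 and 306 to 893 and 724 FPKM (1.38, adjusted p = 3.05e-05). Bub1b, BubR1, went from 578 and 571 to 959 and 822 FPKM (0.63, adjusted p = 0.000858). Nuf2, of the microtubule-binding NDC80 complex, went from 142 and 179 to 273 and 308 (0.86, adjusted p = 0.00415), and Cenpn, which reads centromeric chromatin, from 398 and 305 to 682 and 825 (1.10, adjusted p = 0.00108). All 4 were called higher as deposited, and in each the lowest MI library exceeded the highest GV library, as in 9.38% of all genes tested.

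Spindle genes changed in both directions. Of 38 tested organizers of the acentriolar spindle 6 rose (15.8%) and 4 fell (10.5%), against 3.06% and 7.65% of all genes. Their medians were -0.10 and 0.45. Of central spindle proteins, Kif23 went from 249 and 298 to 512 and 552 FPKM (0.96, adjusted p = 0.00115) and Prc1 from 384 and 382 to 560 and 552 (0.54, adjusted p = 0.00339). Kif2c, a microtubule-depolymerizing kinesin, went from 209 and 186 to 358 and 344 FPKM (0.83, adjusted p = 0.00339). Tacc3, which stabilizes spindle microtubules, fell from 2081 and 2151 to 597 and 697 FPKM (-1.71, SE 0.11, adjusted p = 6.56e-06). Ckap5, the microtubule polymerase that works with it, went from 21.3 and 24.4 to 46.5 and 43.3 FPKM (0.95, adjusted p = 0.0323), a call lost without any 1 of the 4 libraries. The tubulin gene Tubb4b fell from 1871 and 1840 to 465 and 433 (-2.05, adjusted p = 1.32e-05). The GTPase Ran, which guides spindle assembly around chromosomes, fell from 248 and 264 to 96.8 and 81.6 (-1.51, adjusted p = 0.000523). Tubb4b and Ran have close paralogs or processed copies, and how the authors' counting split shared reads is not known.

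Of 26 tested members of cohesin, condensin and the meiotic axis 1 rose and 1 fell (3.85% each), near the shares of all genes (3.06% and 7.65%). Sycp3, of the synaptonemal complex, went from 92.7 and 89.1 to 237 and 259 FPKM (1.44, adjusted p = 0.00163). Smc4, a core condensin subunit, fell from 313 and 259 to 55.7 and 47.2 FPKM (-2.45, SE 0.20, adjusted p = 2.37e-05). The plot of cell division genes by library shows the 2 sets side by side.

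**Figure D3:**
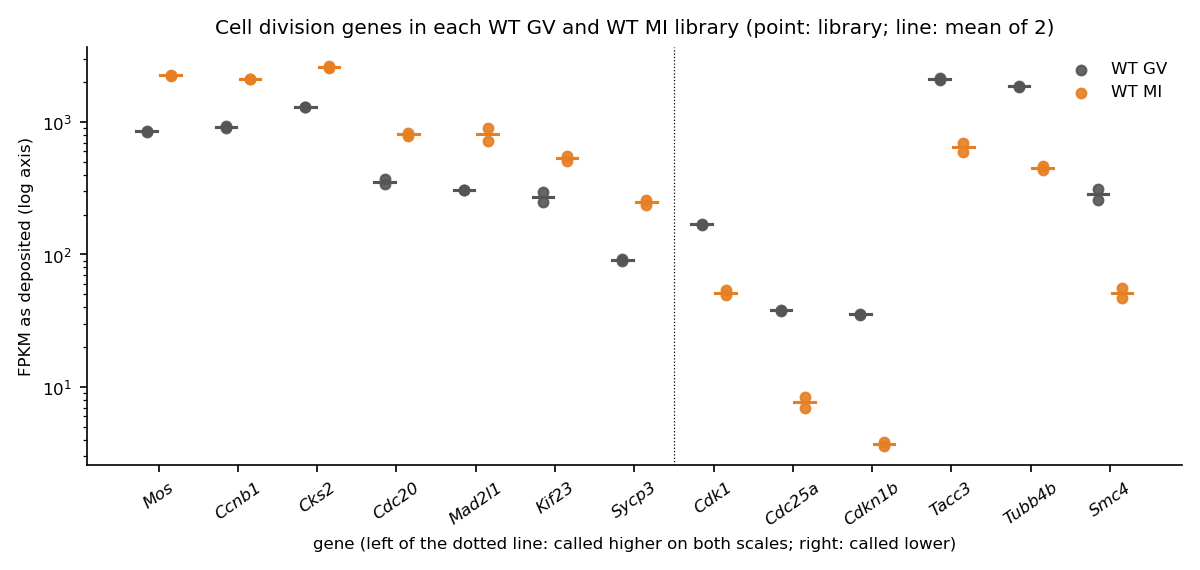
FPKM as deposited (log axis) of 13 cell division genes in the 2 WT GV libraries (grey) and 2 WT MI libraries (orange); points are libraries and lines their mean. The 7 genes left of the dotted line were called higher and the 6 right of it lower on both scales, and no gene's stages overlap. Over all genes tested the MI libraries lay wholly above the GV libraries in 9.38% of cases and wholly below in 55.2%.

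Nuclear envelope genes showed changes in both directions. Of 30 tested nucleoporins 2 rose (6.67%) and 1 fell (3.33%), against 3.06% and 7.65% of all genes. Their medians were -0.19 and 0.47, and 7 were higher after scaling (23.3%, against 6.99% of all genes). Nup35 went from 159 and 197 to 361 and 400 FPKM (1.09, adjusted p = 0.00366) and Nup37 from 147 and 181 to 319 and 300 (0.92, adjusted p = 0.00138), both scaffold components of the pore. Of 26 tested importins, exportins and Ran regulators 1 rose (3.85%) and 3 fell (11.5%), with medians of -1.22 and -0.60. Ranbp1, a cofactor of Ran, fell from 256 and 269 to 51.5 and 13.9 FPKM (-3.24, adjusted p = 0.00243). Of 16 tested genes of the lamina and envelope 2 rose (12.5%) and 1 fell (6.25%), against 3.06% and 7.65% of all genes. Sun1, which links the envelope to the cytoskeleton, went from 35.01 and 29.8 to 92.1 and 60.3 FPKM (1.18, adjusted p = 0.0155), and the lamin B receptor gene Lbr from 148 and 168 to 254 and 219 (0.58, adjusted p = 0.025). Both calls were lost without WT GV replicate 1, WT GV replicate 2 or WT MI replicate 1. Tor1a, a luminal ATPase of the envelope, fell from 895 and 835 to 207 and 216 (-2.03, SE 0.12, adjusted p = 3.36e-06). Lmna, lamin A, stood at 210 and 294 then 78.0 and 62.7 FPKM and was not called (adjusted p = 0.26). Its MI libraries lay wholly below its GV libraries, as in 55.2% of all genes tested.

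Messages of the cortex and egg coat differed by gene. Of 41 tested genes of actin and asymmetric division 0 rose and 3 fell (7.32%, near the 7.65% of all genes), and 5 were higher after scaling alone (12.2%). Among the fallen were beta-actin (Actb, 531 and 556 then 223 and 202 FPKM, -1.35, adjusted p = 0.000134) and the Arp2/3 subunit Arpc5l (821 and 752 then 230 and 243, -1.73, adjusted p = 0.000197). Of 29 tested genes of egg calcium, cortical granules and sperm binding 2 rose (6.90%) and 1 fell (3.45%). The shares of all genes were 3.06% and 7.65%. Astl, the ovastacin that cleaves the zona after fertilization, went from 1237 and 1317 to 1968 and 2203 FPKM (0.71, adjusted p = 0.000116), and its substrate Zp2 from 1864 and 1713 to 2754 and 2932 (0.67, adjusted p = 0.000136). Folr4 (Juno), the egg's receptor for sperm Izumo1, fell from 807 and 750 to 300 and 329 (-1.30, adjusted p = 0.000172). Zp3 stood at 12192 and 12487 then 9431 and 9977 FPKM, a change of -0.35 as deposited (adjusted p = 0.000136) that turned to 0.33 after scaling.

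Post-transcriptional regulators were called in shares near those of all genes (3.06% risen and 7.65% fallen). Among 63 tested genes of CCR4-NOT, its adaptors and 3′ UTR binding proteins 3 rose (4.76%) and 6 fell (9.52%). Their medians were -0.95 and -0.29, close to those of all genes. The 3 that rose belong to deadenylation: Btg4, the adaptor that recruits CCR4-NOT during maturation (chromosome 9, 50924106 to 50927980), went from 3269 and 3124 to 6379 and 6704 FPKM. The catalytic subunits Cnot7 and Cnot8 went from 208 and 183 to 354 and 381 and from 189 and 231 to 421 and 523. Cnot6l, the gene deleted in the KO groups, was at 38.7 and 16.1 then 68.5 and 47.9 FPKM and was not called (1.16, adjusted p = 0.165). Those that fell included Zar1 and its relative Zar1l (531 and 474 then 72.1 and 98.1 FPKM), the m6A reader Ythdf2 (130 and 135 then 28.3 and 50.1; -1.79, adjusted p = 0.00243) and the RNA-binding protein Igf2bp2 (236 and 253 then 55.4 and 64.4). The Ythdf2 call was lost under 3 of 17 alternatives (adjusted p up to 0.0635). Cpeb1, which binds the cytoplasmic polyadenylation element, stood at 1361 and 1344 then 882 and 839, a change of -0.65 as deposited (adjusted p = 0.00119) and 0.02 after scaling. Dazl, its partner in translational activation, was at 199 and 188 then 235 and 209 FPKM and was called after scaling alone (0.87, adjusted p = 0.0037). Of 21 tested small RNA pathway genes 0 rose and 3 fell (14.3%, against 7.65% of all genes).

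Of 48 tested spliceosome and SR protein genes 8 rose (16.7%) and 1 fell (2.08%), against 3.06% and 7.65% of all genes, with medians of -0.70 and -0.03. Without 1 library the higher calls numbered 4 to 6. Snrpd3, a core Sm protein, went from 347 and 427 to 900 and 977 FPKM (1.28, adjusted p = 0.0012), and Snrpb2, of the U2 snRNP, from 218 and 259 to 473 and 505 (1.04, adjusted p = 0.000887). Its U2 partner Snrpa1 fell, from 367 and 239 to 84.1 and 70.6 (-1.93, adjusted p = 0.000751). RNA polymerase II and its general factors also went both ways, with 3 of 46 risen (6.52%) and 5 fallen (10.9%). The subunit gene Polr2c went from 1112 and 1034 to 2213 and 2344 FPKM (1.09, adjusted p = 4.92e-05), while Polr2k fell from 638 and 657 to 191 and 174 (-1.82, adjusted p = 3.9e-05).

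Of 64 tested genes of maternal histones and chromatin 7 rose (10.9%) and 5 fell (7.81%), against 3.06% and 7.65% of all genes. Beside H1foo and Dppa3, the histone H3.3 gene H3f3b went from 890 and 916 to 1674 and 1841 FPKM (0.96, adjusted p = 6.95e-05) and the nucleoplasmin Npm2 from 1988 and 1981 to 3207 and 3302 (0.71, adjusted p = 0.00379). Uhrf1, the cofactor of maintenance DNA methylation, fell from 1612 and 1464 to 555 and 590 FPKM (-1.42, adjusted p = 8.37e-05). Myst1, a histone H4 acetyltransferase, fell from 527 and 551 to 148 and 93.8 (-2.18, adjusted p = 0.00017), and Chaf1a, of the replication-coupled histone chaperone, from 234 and 350 to 79.1 and 66.1 (-1.97, adjusted p = 0.000847).

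Oocyte identity genes diverged as well. Among secreted factors Gdf9 (chromosome 11, 53244525 to 53251406) went from 5750 and 6182 to 10680 and 11484 FPKM and its partner Bmp15 from 1379 and 1362 to 2205 and 2105. Oosp1, an oocyte-secreted protein gene, went from 1480 and 1457 to 6233 and 5721 FPKM (2.02, SE 0.06, adjusted p = 3.11e-08). Gja4, the connexin of the gap junctions with granulosa cells, fell from 1254 and 1197 to 287 and 397 (-1.86, adjusted p = 0.00253). The Gja4 call was lost under 3 of 17 alternatives (adjusted p up to 0.0711). The homeobox gene Obox5 went from 1039 and 1064 to 4302 and 4445 FPKM (2.06, adjusted p = 8.93e-08). Of 23 tested oocyte transcription factors and Obox genes 4 rose (17.4%) and 3 fell (13.04%), against 3.06% and 7.65% of all genes. The others were not called alike on both scales. Obox1 and Obox2 also rose but are near-identical copies whose reads may be shared. Of factors needed for follicle growth, Nobox fell from 1181 and 1285 to 368 and 435 FPKM (-1.62, adjusted p = 1.41e-05) and Lhx8 from 451 and 410 to 155 and 116 (-1.67, adjusted p = 0.00127). Of 16 tested genes of the subcortical maternal complex and oocyte Nlrp family 5 rose (31.25%) and 0 fell on both scales. The shares of all genes were 3.06% and 7.65%. The median WT GV level of this list was 463 FPKM, and of all genes between 100 and 1000 FPKM in KO GV 8.92% rose and 19.8% fell. After scaling 9 were higher (56.25%, against 6.99% of all genes), and without 1 library 1 or 2 were higher as deposited. Inha, the inhibin alpha subunit made chiefly by granulosa cells, fell from 201 and 239 to 22.7 and 37.6 FPKM (-2.86, adjusted p = 0.002). It was the 1 fallen gene among 16 tested cumulus and granulosa markers, of which 2 rose. Those were Ptx3 (adjusted p = 0.000245) and Tnfaip6, another protein of the cumulus matrix, which were listed at 0 in both GV libraries. Tnfaip6 stood at 7.88 and 5.79 FPKM at MI (adjusted p = 0.00332).

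Ribosomal protein messages were lower at MI in most cases. Of 85 tested cytosolic ribosomal protein genes 0 rose and 41 fell on both scales (48.2%, against 7.65% of all genes; 65 lower as deposited, 76.5%, against 21.7% of all genes). Their medians were -1.62 and -0.94, against -0.87 and -0.32 for all genes, and 51 to 56 were called lower as deposited without 1 library. Rpl35 went from 3746 and 3337 to 1118 and 997 FPKM (-1.74, adjusted p = 6.76e-07). The decrease was not shared by all: Rpl41, Rpl10, Rps2, Rps27l and Rps28 were among those called higher after scaling and not called as deposited. Ribosomal protein genes have many processed copies that could take reads. Of 75 mitochondrial ribosomal protein genes 0 rose and 19 fell (25.3%), with medians of -1.45 and -0.81. Mrpl12 went from 492 and 537 to 54.1 and 104 FPKM (-2.76, adjusted p = 0.00015). Of 49 initiation and elongation factors 2 rose (4.08%) and 13 fell (26.5%). The median WT GV level was 642 FPKM for cytosolic and 151 for mitochondrial ribosomal protein genes, and 158 for these factors. Of all genes between 100 and 1000 FPKM in KO GV, 19.8% fell.

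Respiratory chain genes fell in a larger share of cases than all genes (7.65%), and most were not called alike on both scales. Their median WT GV level was 388 FPKM in complex I, 468 in complexes II to IV and 561 in ATP synthase. Of all genes between 100 and 1000 FPKM in KO GV, 19.8% fell and 8.92% rose. The fallen shares of complex I and complexes II to IV were nearer to 19.8% than to 7.65%, and the part of level was not tested. ATP synthase had 7 of 16 members fallen (43.8%) and 0 risen, complex I 10 fallen (27.8%) and 1 risen of 36, and complexes II to IV 7 fallen (24.1%) and 4 risen (13.8%) of 29. After scaling 8 genes of complexes II to IV and 4 of complex I were higher (27.6% and 11.1%, against 6.99% of all genes). The 4 that rose are all Cox6 genes (Cox6a1, Cox6b1, Cox6b2 and Cox6c). Cox6c went from 880 and 1011 to 1921 and 1907 FPKM (1.02, adjusted p = 8.3e-05) and the testis-type Cox6b2 from 500 and 294 to 1141 and 1283 (1.66, adjusted p = 0.000507). Cox5a fell in the same complex, from 1017 and 966 to 243 and 317 (-1.83, adjusted p = 0.000102). Ndufa4, the lone risen gene of the complex I list and now assigned to complex IV, went from 674 and 655 to 1706 and 1964 FPKM (1.46, adjusted p = 5.72e-06). Sdhb, the iron-sulfur subunit of complex II, fell from 457 and 480 to 78.2 and 75.6 (-2.59, adjusted p = 3.9e-05).

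Risen members of mitochondrial import and the tricarboxylic acid cycle were near the 3.06% of all genes in share. Of 36 tested genes of mitochondrial import and dynamics 0 rose and 7 fell (19.4%, against 7.65% of all genes), with medians of -1.41 and -0.85, among them the translocase genes Timm17a (1001 and 1107 then 168 and 200 FPKM) and Tomm22 (266 and 294 then 33.4 and 46.9). Of 32 tested genes of pyruvate dehydrogenase and the cycle 1 rose (3.12%) and 4 fell (12.5%), and 18 were lower as deposited (56.2%, against 21.7%). Without 1 library the latter count was 7 to 13. Idh3g, of isocitrate dehydrogenase, went from 91.0 and 81.7 to 9.41 and 10.4 FPKM (-3.00, adjusted p = 0.000197).

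Of 35 tested proteasome genes 14 fell (40.0%) and 1 rose (2.86%), against 7.65% and 3.06% of all genes. After scaling 4 were higher (11.4%), and the medians were -1.48 and -0.81. Their median WT GV level was 340 FPKM, and 19.8% of all genes between 100 and 1000 FPKM in KO GV fell. The ATPase subunit gene Psmc2 fell from 354 and 309 to 33.3 and 32.7 FPKM (-3.29, SE 0.36, adjusted p = 0.000175), while Psma2, of the outer ring of the core, went from 1631 and 1508 to 3826 and 3643 (1.25, adjusted p = 2.2e-06). Cullin ligases differed, with 7 of 47 risen (14.9%) and 5 fallen (10.6%): the scaffold gene Cul1 went from 315 and 263 to 564 and 506 (0.89, adjusted p = 0.00122). Cops7a, of the signalosome that removes Nedd8 from cullins, fell from 457 and 449 to 104 and 110 (-2.07, adjusted p = 0.000518). Among chaperones 4 rose (9.76%) and 6 fell (14.6%) of 41, Hspa8 from 2135 and 1992 to 783 and 753 FPKM (-1.42, adjusted p = 3.82e-06). The median WT GV level was 289 FPKM for cullin ligases and 257 for chaperones. Of all genes between 100 and 1000 FPKM in KO GV, 8.92% rose and 19.8% fell. Of 33 antioxidant genes 6 fell (18.2%) and 1 rose (3.03%), Prdx1, at 4177 and 4282 then 5046 and 5515 FPKM (0.32, adjusted p = 0.00267).

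**Figure D4:**
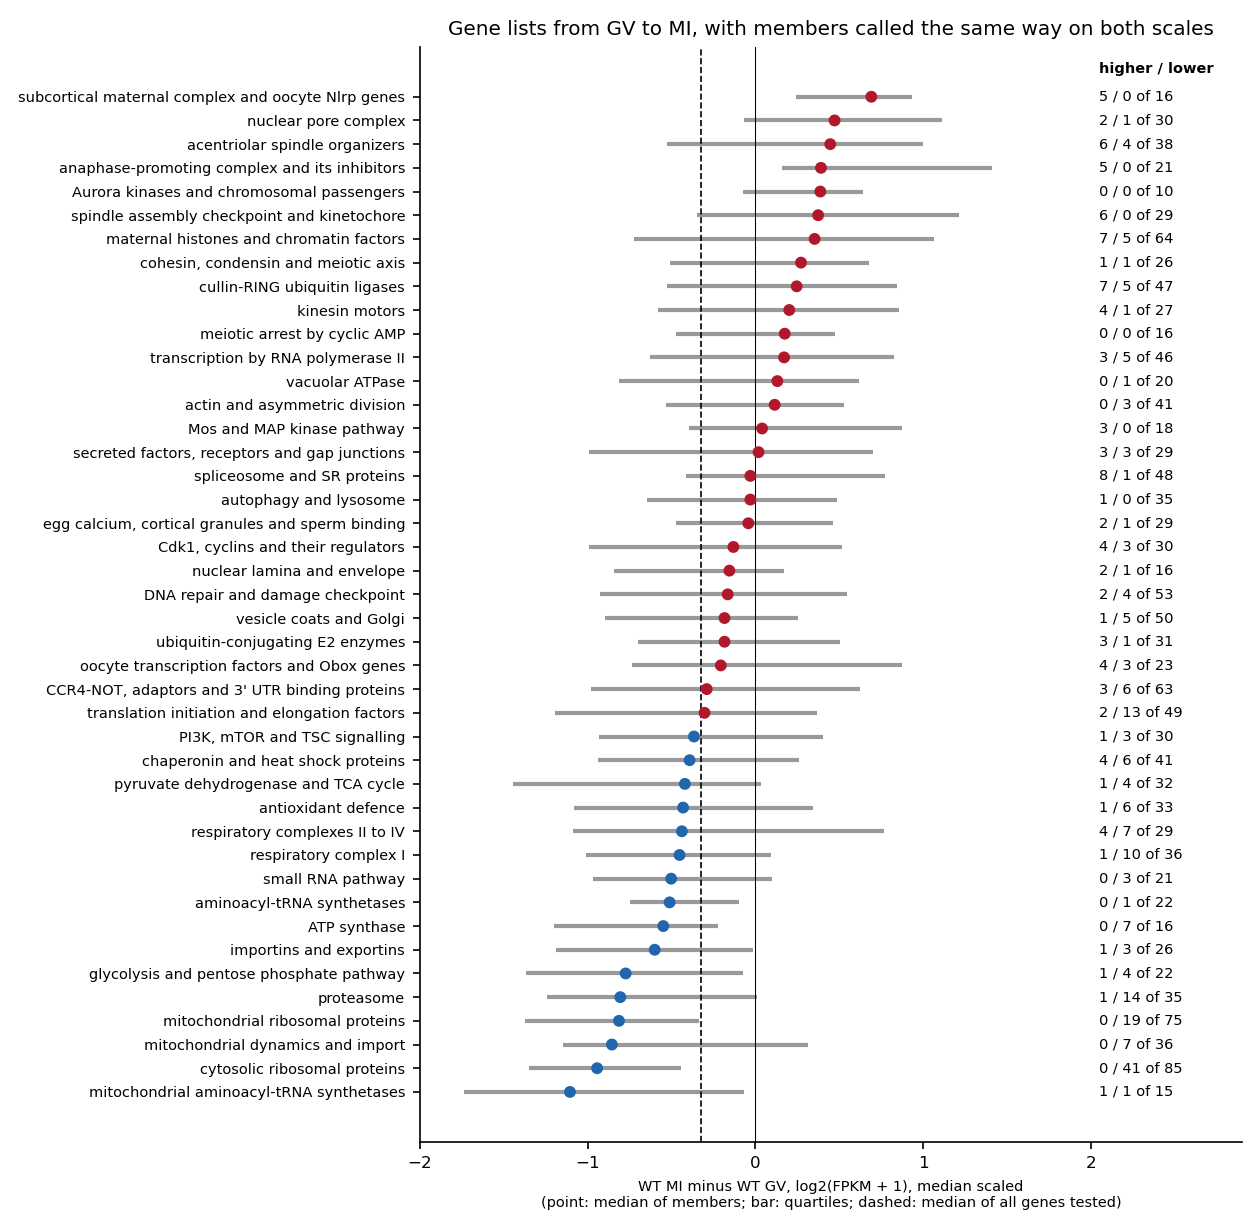
Median-scaled change from WT GV to WT MI for the gene lists: points are medians of the tested members, bars their quartiles, and the dashed line the median of all genes (-0.32). Figures at the right count members called higher and lower on both scales; cytosolic ribosomal proteins have 0 higher and 41 lower of 85.

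The change in WT was then set beside that in KO oocytes over the same stages, in libraries that do not enter the WT contrast. Both sets of calls came from the same fit, with a spread per gene, a filter and a scaling shared by all 12 libraries. The WT and KO calls are therefore not independent, and the backgrounds below, over all genes, are not matched for spread or level. Of the 357 genes risen in WT, 283 were called higher in KO as deposited (79.3%, background 8.89%) and 218 after scaling (61.1%, background 4.19%). Their median change in KO was 1.32 as deposited and 0.94 after scaling, against 1.05 and 1.73 in WT. Of the 892 genes fallen in WT, 69 were lower in KO as deposited (7.74%, background 1.35%) and 148 after scaling (16.6%, background 2.32%). Their median in KO was -0.33 and -0.70, against -2.47 and -1.87 in WT. Most risen genes were called higher in KO as well, and most fallen genes were not called lower there. The WT sets were chosen on WT values, so a smaller change of the same genes in other libraries can follow from that choice.

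Genes with an element and a signal had a median change in KO of 0.47 as deposited and 0.13 after scaling, against 0.28 and -0.06 for genes with a signal alone, the same order as in WT. Over all genes the stage change differed between WT and KO for 1711 as deposited (14.7%) and for 182 after scaling (1.56%). Cdk1 was one of the former: in KO it was at 91.3 ± 8.89 FPKM at GV and 179 ± 6.74 at MI (SD, n = 2 each), the opposite direction to WT, although the KO change alone was not called (adjusted p = 0.0629). The difference of the stage changes was -2.66 (SE 0.41, adjusted p = 0.00255), and -1.60 after scaling (adjusted p = 0.107). Cyclin B1, in contrast, was higher at MI in both genotypes, at 790 and 967 then 3218 and 3295 FPKM in KO.

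**Figure D5:**
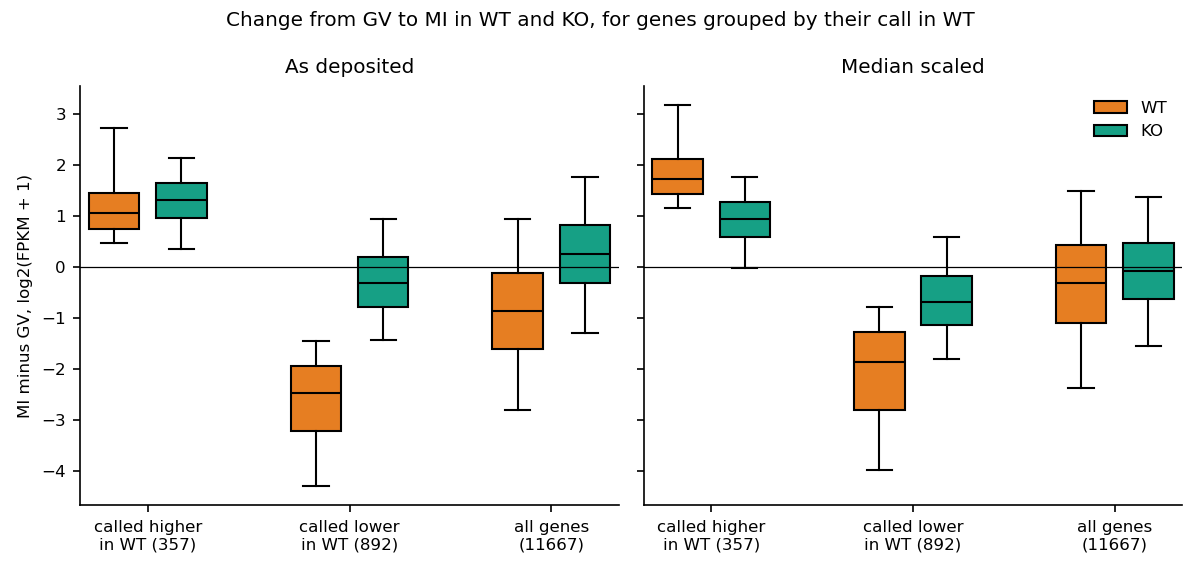
Change from GV to MI in log2(FPKM + 1) in WT (orange) and KO (green), as deposited (left) and median scaled (right), for genes called higher or lower in WT on both scales and for all genes. Boxes are quartiles with the median, whiskers the 5th and 95th percentiles; for the 892 fallen genes the KO median is -0.33 and -0.70.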

How the data were processed

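Polysome-bound RNA of WT and KO mouse oocytes was sequenced. The authors deposited FPKM values for 23235 genes in 12 libraries. Per the submitters' processing notes, the tools were Cufflinks 2.2.1, TopHat2 2.0.11, Bowtie2 2.1.0 and CASAVA 1.8, with build mm9. Read depth, filters and annotation are not stated there, so the precision of a gene is judged from replicates, and an FPKM total can move every gene at once.

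The 11667 genes whose mean FPKM reached 1 were analysed as log2(FPKM + 1), which understates changes of low genes. A limma fit (version 3.58.1, R 4.3.3) of 6 groups used all 12 libraries (residual df 6) and an abundance trend, and p-values were adjusted by Benjamini-Hochberg over all genes, 2-sided, with a threshold of 0.05. Median scaling divided each library by its median ratio to the geometric mean over 5734 genes with a mean of at least 10 FPKM and no zero. The fit was also run on simulated data that held no shift of all genes from GV to MI. Such a run does not test the calls under the shift seen here, and its outcome is not given.

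Members, gene lists and rules were chosen with earlier results of these data known. Named genes are drawn from the 12 largest scaled increases and decreases called on both scales (libraries not overlapping, 10 FPKM or more on the higher side, genes at 0 in both libraries of the lower side left out), the 8 most abundant in each direction, up to 4 members per list and direction, genes listed at 0 at 1 stage, and 20 fixed genes. Genes of the mitochondrial, splicing, spindle and other lists that were not called alike on both scales are named where a sentence turns on them, after their values were seen. Symbols were matched to GENCODE M1 (94.9% of tested genes), using per gene the transcript with the longest coding sequence, and 10098 had a 3′ UTR of at least 100 bases. Alternatives were TPM, quantile normalization, a pseudocount of 0.1, other filters, fewer groups, a replicate block, no abundance trend and each library left out. Added after seeing the data were 2 other median scalings and removal of each library's abundance trend by cyclic loess.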

Additional observations from a re-analysis of the deposited data

Results flagged for a closer look

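For 20 fixed genes the change from GV to MI in WT was tested against that in KO (limma interaction, adjusted over all 11667 genes), and 9 differed as deposited and 5 after median scaling, against 14.7% and 1.56% of all genes. The difference is given as the WT change minus the KO change. The largest as deposited was in Cdk1, -2.66 (adjusted p = 0.00255), lower at MI in WT and higher in KO. Zp3, the zona glycoprotein, differed by -1.57 as deposited and -0.51 after scaling, called on both scales. Gdf9 was called on both scales with opposite signs, -0.38 as deposited and 0.68 after scaling, so the direction of its difference depends on the scale.

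As deposited the WT change was also below the KO change in Ccnb1 (-0.7, adjusted p = 0.00589), Bmp15 (-0.75, adjusted p = 0.00103), Wee2 (-1.1, adjusted p = 0.0236), Cpeb1 (-0.81, adjusted p = 0.00447), Dazl (-1.09, adjusted p = 0.0107) and Aurka (-0.98, adjusted p = 0.0333). None of these 6 nor Cdk1 was called after scaling. After scaling alone the WT change exceeded the KO change in Mos (1.0, adjusted p = 0.00133), Btg4 (1.18, adjusted p = 7e-06) and Bub1b (0.78, adjusted p = 0.0126). The median change of all genes was -0.87 in WT and 0.26 in KO as deposited, and -0.32 and -0.08 after scaling, and its part in these differences was not tested.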

How the results depend on the processing

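Starting from the deposited values, genes called higher numbered 918 with quantile normalization, 819 after removing each library's abundance trend and 228 with no trend in the fit. Genes called lower numbered 748, 749 and 2241. A fit of the 3 WT groups gave 1305 lower as deposited, and 537 higher and 499 lower after scaling. With 1 library left out the counts were 216 to 270 higher and 1176 to 1940 lower as deposited, and 506 to 614 and 303 to 751 after scaling. Median scaling over the 4 WT libraries or with zeros kept gave 963 higher each, and 754 and 698 lower. Of the fixed genes 9 differed between WT and KO as deposited, 5 after median scaling and 5 to 9 with 1 library left out, 5 without KO MI replicate 2. Over the whole 3′ UTR an element stood in 69.21% of risen, 40.34% of fallen and 57.68% of other genes. The cause of these shifts was not tested.

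Of 112 named genes 108 were called as deposited. Of these 32 lost the call or turned sign under at least 1 of 17 settings, 13 of them with 1 library left out. Signs turned as follows. With quantile normalization Pttg1 and Ldhb had changes of 0.00, Prdx1 -0.04 and Wee2 0.08. With the abundance trend removed Ldhb was at -0.79, Padi6 at -0.08 and Prdx1 at -0.04. Under median scaling, over the 4 WT libraries and with zeros kept, Wee2 was at 0.05, 0.19 and 0.21, Zp3 at 0.33, 0.46 and 0.48, and Cpeb1 at 0.02, 0.16 and 0.18. The other settings turned no sign.

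Replicate numbers are shared by all groups. Deviations of WT GV and WT MI libraries with the same number were uncorrelated (r = 0.00809, and -0.0292 to 0.0547 over all pairs of groups). That check cannot show whether libraries with the same number were collected together, which the labels do not say. The main fit did not pair them. A replicate block gave 345 higher and 2473 lower as deposited, 776 and 847 after scaling and 9 fixed genes, and changed the call of none of the 112 named genes. Precision is limited by 2 libraries a stage and unknown read depth, least for abundant genes.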
